A study of Mus musculus with 12 samples.

Results

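Aminoacyl-tRNA synthetase genes were followed in mouse liver during caloric restriction (CR). The genes were taken by symbol from the gene expression table, and all 38 that were looked for had a single entry each among 24537 genes. They comprised 20 cytosolic synthetases or subunits (Aars, Cars, Dars, Eprs, Farsa, Farsb, Gars, Hars, Iars, Kars, Lars, Mars, Nars, Qars, Rars, Sars, Tars, Vars, Wars and Yars), 16 mitochondrial synthetases (Aars2, Cars2, Ears2, Fars2, Hars2, Iars2, Lars2, Mars2, Nars2, Pars2, Rars2, Sars2, Tars2, Vars2, Wars2 and Yars2) and 2 scaffold proteins of the cytosolic multisynthetase complex (Aimp1 and Aimp2). In the symbols the leading letter is that of the amino acid, so that Lars is leucyl-tRNA synthetase and Lars2 its mitochondrial counterpart. Of the 38 genes, 37 passed the minimum for testing of 1 FPKM in at least 3 livers, and Mars2 did not.

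Hepatic RNA-Seq was available from 12 male C57Bl/6J mice that entered the study at 6 weeks of age and lived in individual cages. Con mice had free access to food. CR mice were given 30% less food than the Con mice ate, as a fortified version of the diet, daily at noon. Diet formula and meal time thus differed along with the amount of food, and their parts cannot be told apart. According to the study's methods, mice also received heavy water in the days before the livers were collected. Livers of 3 Con and 3 CR mice were collected at day 25 of the intervention and those of 3 further mice of each kind at day 30, so that each group held 3 separate animals and the comparisons at the 2 days shared no mouse.

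A synthetase joins an amino acid to its cognate tRNA at the cost of ATP, and this charged tRNA is what the ribosome uses to read a codon. The nuclear genome encodes separate enzymes for the cytosol and for the mitochondrial matrix, apart from a few genes such as Gars and Kars, whose transcripts give both forms. Uncharged tRNA that builds up when an amino acid runs short activates the kinase Gcn2, which leads to translation of the transcription factor Atf4, and several cytosolic synthetase genes are textbook targets of Atf4. The liver makes the plasma proteins and is therefore a heavy user of charged tRNA.

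Depth ranged from 15750017 to 23342668 reads per liver, and 78.1% to 84.3% of them lay on exons. The synthetase genes were read deeply enough for most comparisons, since 35 of the 38 had at least 100 reads in every liver. Pars2 was the exception at the low end with 23 to 69 reads, followed by Mars2 with 33 to 60 and Wars2 with 68 to 142. Hepatocyte markers were at very high levels in all groups, and their 8 genes together reached 39900 to 66300 FPKM in a liver, whereas the highest value of any of 8 lymphoid markers was 0.957 FPKM.

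FPKM values correct for the depth of a library and the exon length of a gene, which allows levels to be compared between genes. Averaged over the 6 Con livers, the cytosolic synthetases ran from 5.04 FPKM for Wars to 48.3 FPKM for Aars, with a median of 14.9 FPKM. Aars, Nars (34.1 FPKM), Tars (31.9 FPKM), Eprs (30.7 FPKM), Dars (28.2 FPKM), Kars (25.8 FPKM) and Qars made up the 7 that lay at or above 20 FPKM. Eprs carries the glutamyl and the prolyl activity on a single chain. The next 6 were Gars (16.6 FPKM), Mars (16.5 FPKM), Hars (15.5 FPKM), Rars (14.2 FPKM), Sars (12.9 FPKM) and Farsb (11.1 FPKM), whose product pairs with that of Farsa to form phenylalanyl-tRNA synthetase. Neighbours in this order could overlap between mice, as Dars and Eprs did. The 7 below 10 FPKM were Iars, Vars, Lars, Yars, Farsa, Cars and Wars.

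The mitochondrial synthetases had a lower median level of 4.97 FPKM, and 13 of the 16 lay below 10 FPKM. Lars2 stood far above the others with 69.7 FPKM in Con livers and was the most abundant of all 38 transcripts, ahead of Aars. Iars2 followed with 18.9 FPKM and Fars2 with 12.7 FPKM. At the other end were Ears2 with 1.61 FPKM, Wars2 with 1.18 FPKM, Pars2 with 1.02 FPKM and Mars2 with 0.806 FPKM. Of the scaffold genes, Aimp1 was at 20.6 FPKM and Aimp2 at 7.45 FPKM.

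**Figure D1:**
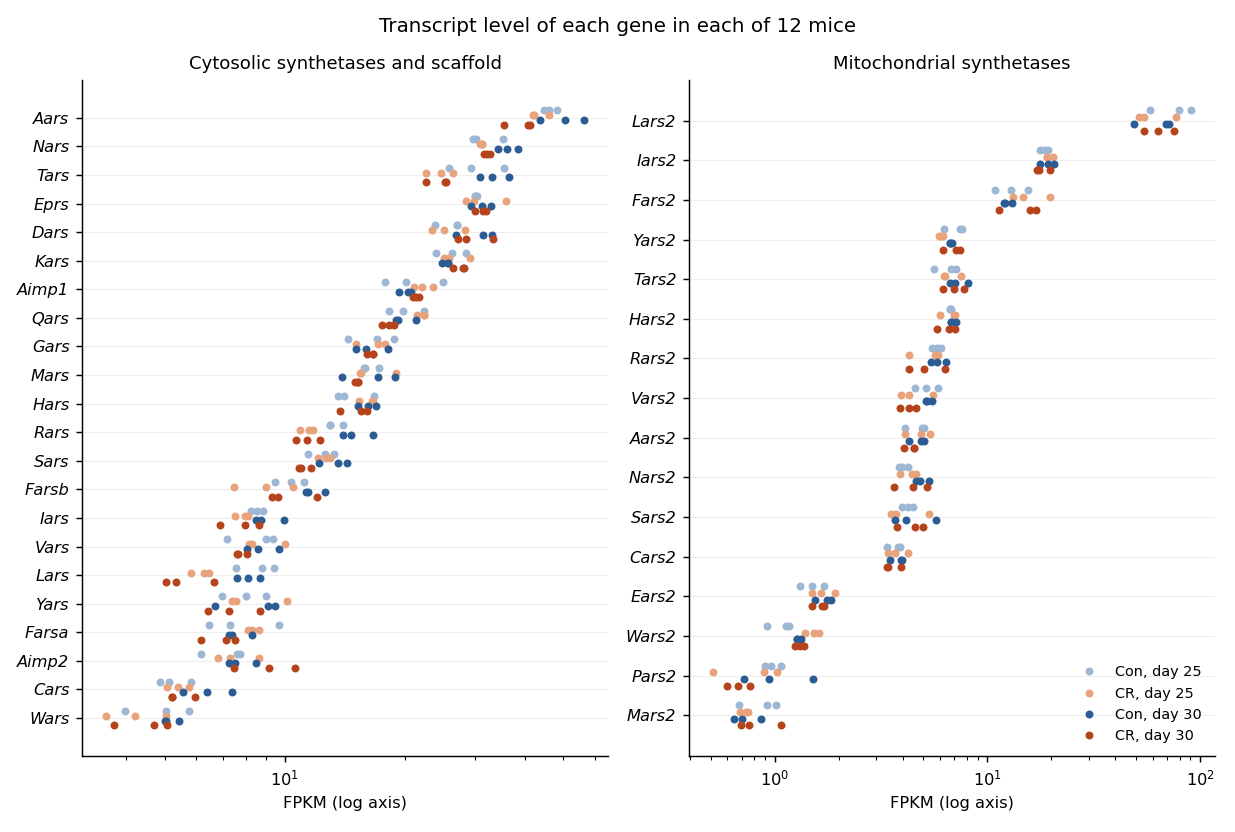
FPKM of each of the 38 genes in each of the 12 livers on a logarithmic axis, with genes in order of their mean Con level and each point a mouse, coloured by group. Lars2 at 48.8 to 90.9 FPKM stands apart from the other mitochondrial synthetases, none of which exceeded 20.7 FPKM in any mouse.

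For 13 amino acids the table held both a cytosolic and a mitochondrial gene. The cytosolic transcript exceeded its partner in all 12 livers for 10 of these pairs, by 14.2 to 29.3 times for methionine and by 7.84 to 11.5 times for alanine. Isoleucine and leucine were the opposite, since Iars was only 0.367 to 0.516 times the level of Iars2, and Lars 0.071 to 0.165 times that of Lars2, in every liver. Yars and Yars2 crossed, with a ratio of 0.903 to 1.64. Hars and Hars2 lie on opposite strands and share 195 exon bases, and Mars shares 68 with Ddit3, so that reads there could be counted for either gene if strand was not used.

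Promoter sequence was looked up because synthetase genes are known Atf4 targets, and RefSeq entries for build GRCm38.p6 were matched for 29 of the 38 genes (13 cytosolic, 14 mitochondrial and both scaffold genes), each covering 250 bases before the start of transcription and 50 after it. The C/EBP-ATF response element, searched on both strands as TGATGNAA, was found in 3.97% of 32851 promoters and in 2.18% of those of the genes tested. Among the synthetases it lay in the promoters of 5 of 13 cytosolic genes, which were Aars, Gars, Iars, Tars and Yars. It was in none of the 14 mitochondrial promoters and in neither of the scaffold promoters. A match in each of the 5 genes is given here on the strand of the gene from 5′ to 3′, with the element in capitals. In Yars it runs along the gene and in the others against it, so that there its reverse complement is printed.
Aars, chr8:111033840-111033869, plus strand, element at 10 to 17 from the start: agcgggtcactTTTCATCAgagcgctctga
Gars, chr6:55037960-55037989, plus strand, element at -30 to -23: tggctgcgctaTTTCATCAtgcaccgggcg
Iars, chr13:49682126-49682155, plus strand, element at 8 to 15: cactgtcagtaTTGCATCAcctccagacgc
Tars, chr15:11399655-11399684, minus strand, element at -15 to -8: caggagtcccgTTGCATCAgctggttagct
Yars, chr4:129189895-129189924, plus strand, element at 4 to 11: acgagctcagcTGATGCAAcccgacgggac

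Other motifs were searched in the same windows and on both strands. The E-box CACGTG was in 7.15% of all promoters and 10.5% of those of tested genes, and in those of 4 cytosolic genes (Aars, Farsb, Iars and Tars) and 1 mitochondrial gene (Ears2). Aars, Iars and Tars thus held both this motif and the response element, at places that did not overlap. The ETS motif CCGGAAGT, present in 3.89% of all promoters and 8.55% of those of tested genes, was found in Farsa, Mars, Rars2 and Aimp1. The NRF1 motif GCATGCGC, present in 2.71% and 5.29%, was found in 3 of the 14 mitochondrial promoters (Rars2, Wars2 and, at 2 places, Vars2) and in none of the 13 cytosolic promoters. Such matches describe the letters only. Cars, Hars, Lars, Nars, Rars, Vars, Wars, Hars2 and Pars2 had no entry.

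At day 30, the synthetase transcripts that passed the test were cytosolic and lower in CR than in Con livers. Cytosolic and mitochondrial genes were not tested against each other. Lars, Tars, Rars, Aars and Sars, which charge the tRNAs for leucine, threonine, arginine, alanine and serine, passed the test, and all 5 were lower. They were 5 of 37 genes tested, or 13.5%, while 24.7% of all 10593 genes tested passed. Of the 20 cytosolic synthetases 25.0% passed, close to the 24.7% of all genes in either direction. Counting lower genes alone, these were 25.0% of the cytosolic synthetases and 13.5% of all 37 genes, beside 16.4% of all genes. No mitochondrial synthetase of 15 and neither scaffold gene passed at day 30 with limma or with voom on recovered reads, and only Vars2 among them had an unadjusted p under 0.05. The test was that of limma, a gene being called where its p, adjusted by the method of Benjamini-Hochberg, was under 0.1. Changes are given as differences in log2(FPKM + 1), a scale that understates changes of low genes. None of the synthetases was called as higher at day 30, beside 8.33% of all genes. No synthetase was called with a change of 2-fold or more at either day, beside 2.21% of all genes at day 30 and 1.48% at day 25.

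Lars had the most negative difference at day 30 on this scale, closely followed by Tars, but the order of the pair was not stable. Tars was the lower with quantile normalization (-0.42 against -0.37) or without the Con mouse with 8.66 FPKM of Lars (-0.50 against -0.41). It was also the lower without the CR mouse with 5.04 FPKM or that with 5.35 FPKM of Lars. The level of Lars was 8.66, 7.61 and 8.07 FPKM in the Con livers and 5.04, 6.65 and 5.35 FPKM in the CR livers, and every CR mouse lay below every Con mouse. The difference was -0.45 ± 0.11 (SE, n = 3 per group, adjusted p = 0.0142 with limma). At day 25, in other mice, Lars was at 7.56, 8.79 and 9.41 FPKM in Con and at 6.45, 6.28 and 5.83 FPKM in CR livers, again without overlap. That difference was -0.41 ± 0.11 (adjusted p = 0.0334 with limma), and Lars was the only cytosolic synthetase that passed at day 25. Without the Con mouse at 9.41 FPKM or the CR mouse at 5.83 FPKM the adjusted p at day 25 was 0.114 and 0.113, respectively. Lars lies on chromosome 18 (42202349 to 42262071, mm10), and besides charging tRNA its product has been described as a leucine sensor of the mTORC1 pathway.

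Tars was among the more abundant synthetases and showed a difference of similar size. Con livers at day 30 had 31.0, 36.5 and 33.2 FPKM and CR livers had 25.3, 22.6 and 25.4 FPKM. All CR mice were below all Con mice, and the difference was -0.44 ± 0.12 (adjusted p = 0.0266 with limma). At day 25 the values of 35.5, 25.9 and 29.3 FPKM in Con and 24.7, 22.7 and 26.5 FPKM in CR overlapped. The difference of -0.28 ± 0.12 did not pass (adjusted p = 0.174 with limma), although it did without the Con mouse at 25.9 FPKM, at an adjusted p of 0.0892.

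Rars, a component of the multisynthetase complex, was at 14.7, 14.0 and 16.6 FPKM in Con and at 10.7, 12.2 and 11.3 FPKM in CR livers at day 30. The groups were well apart, with a difference of -0.37 ± 0.09 (adjusted p = 0.0155 with limma). At day 25 the Con values were 14.0, 13.0 and 13.0 FPKM and the CR values 11.5, 10.9 and 11.8 FPKM. These did not overlap either, but the smaller difference of -0.21 ± 0.09 had an adjusted p of 0.172 with limma. Lars, Tars and Rars at day 30 passed under each of the 21 alternative settings and subsets of mice that were tried.

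Aars, the most abundant cytosolic synthetase, was at 50.6, 56.5 and 43.8 FPKM in Con and at 35.6, 41.2 and 40.9 FPKM in CR livers at day 30. The lowest Con mouse was only slightly above the highest CR mouse, and the difference was -0.35 ± 0.11 (adjusted p = 0.0448 with limma). Aars no longer passed without the Con mouse at 50.6 FPKM (adjusted p = 0.109), the Con mouse at 56.5 FPKM (0.161) or the CR mouse at 35.6 FPKM (0.167). The difference at day 25 was -0.09 ± 0.11 (adjusted p = 0.647 with limma). An exon of Aars shares 77 bases with the miRNA gene Gm24103 on the opposite strand, and whether counting used strand is not stated in the table.

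Sars was the least secure of the 5. Its values at day 30 were 14.3, 13.6 and 12.2 FPKM in Con and 10.97, 11.6 and 10.9 FPKM in CR livers, so that the groups were separate by a small margin. The difference of -0.24 ± 0.09 had an adjusted p of 0.0846 with limma and passed in 11 of the 21 alternatives. It was lost without any of 7 of the 12 mice, these being all 3 CR mice of day 30, 2 of the Con mice of day 30 (at 14.3 and 13.6 FPKM) and 2 CR mice of day 25 (at 12.1 and 13.0 FPKM), at adjusted p-values of 0.102 to 0.234. At day 25, Sars differed by 0.015 ± 0.088 between CR and Con.

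**Figure D2:**
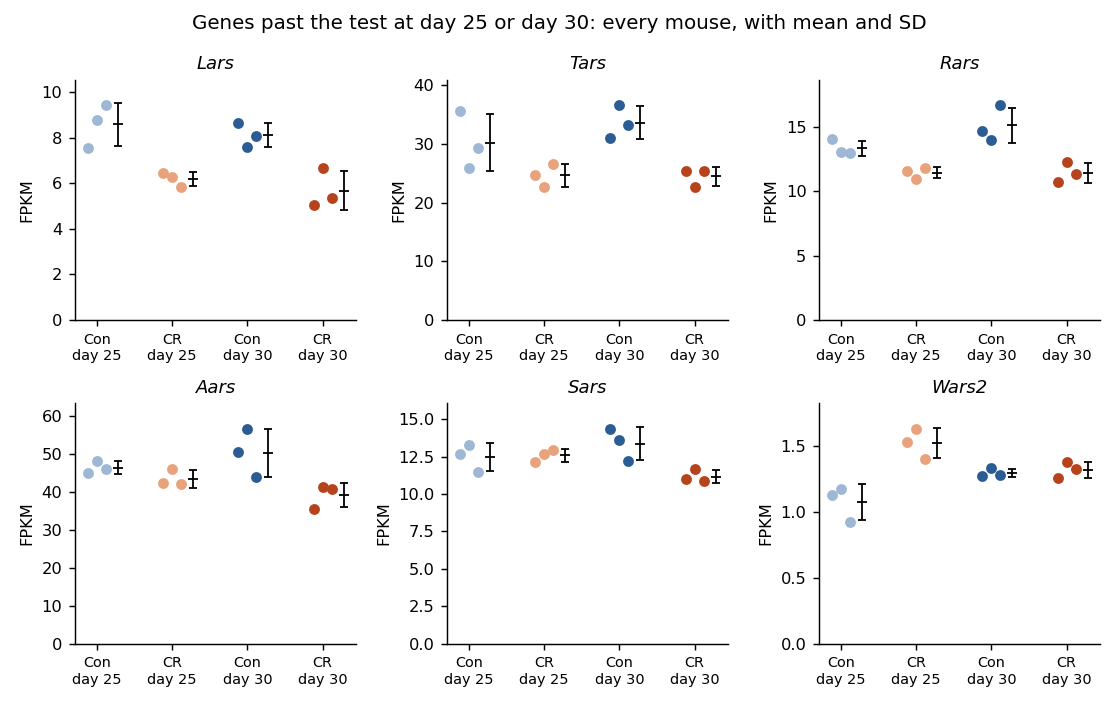
FPKM of the 6 synthetase genes that passed the test at day 25 or day 30, with a point for each mouse and, beside it, the mean and SD of the 3 mice of a group on an axis that starts at 0. CR points lie below Con points for Lars at both days and for Tars, Rars, Aars and Sars at day 30, and above them for Wars2 at day 25.

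The other 15 cytosolic synthetases did not pass at day 30, and their differences ranged from -0.20 for Cars to 0.12 for Kars. In 13 of these 15 the CR level was the lower, so that 18 of 20 cytosolic synthetases had a lower mean log2 level in CR livers, Gars and Kars being the exceptions. The count was 16 to 19 of 20 under the scaling alternatives. Over all genes tested, 60.8% were below 0 at day 30 without scaling. All 3 CR mice were below all 3 Con mice for 8 of 20 cytosolic genes at day 30, a pattern found in 24.3% of all genes. Beside the 5 that passed, these were Nars, Qars and Vars. Nars was at 36.2, 38.5 and 34.4 FPKM in Con and at 31.7, 32.3 and 32.7 FPKM in CR livers, a difference of -0.17 ± 0.09 (adjusted p = 0.218 with limma). Qars was at 21.4, 19.1 and 19.3 FPKM in Con and at 18.3, 18.8 and 17.5 FPKM in CR livers, where the lowest Con mouse was barely above the highest CR mouse. Kars, for lysine, was the only cytosolic synthetase with every CR mouse above every Con mouse, with 28.2, 28.1 and 26.5 FPKM against 25.7, 25.6 and 24.8 FPKM, while 12.1% of all genes showed that pattern. Its difference of 0.12 ± 0.09 did not pass (adjusted p = 0.417 with limma).

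Of the 5 genes with the response element, Aars and Tars were called lower at day 30, whereas Gars (0.01), Iars (-0.19) and Yars (-0.15) were not called. The 2 of 5 stand beside the 25.0% called lower among cytosolic synthetases and the 16.4% among all genes, and with so few genes nothing is read from them. Sars passed without the element in its window, and no promoter entry was matched for Lars and Rars.

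At day 25 the cytosolic synthetases showed no common direction. Differences were above 0 for 11 and below 0 for 9 of 20, beside 57.1% of all genes below 0. Only Lars passed, while 14.9% of all genes passed at that day and 9.34% passed as lower. Every CR mouse was below every Con mouse for Iars, Lars and Rars, and for 18.0% of all genes. Iars was at 8.51, 8.24 and 8.80 FPKM in Con and at 7.49, 8.10 and 7.96 FPKM in CR livers, a difference of -0.11 ± 0.09 (adjusted p = 0.525 with limma). The differences of the 19 genes not called lay between -0.28 and 0.13.

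**Figure D3:**
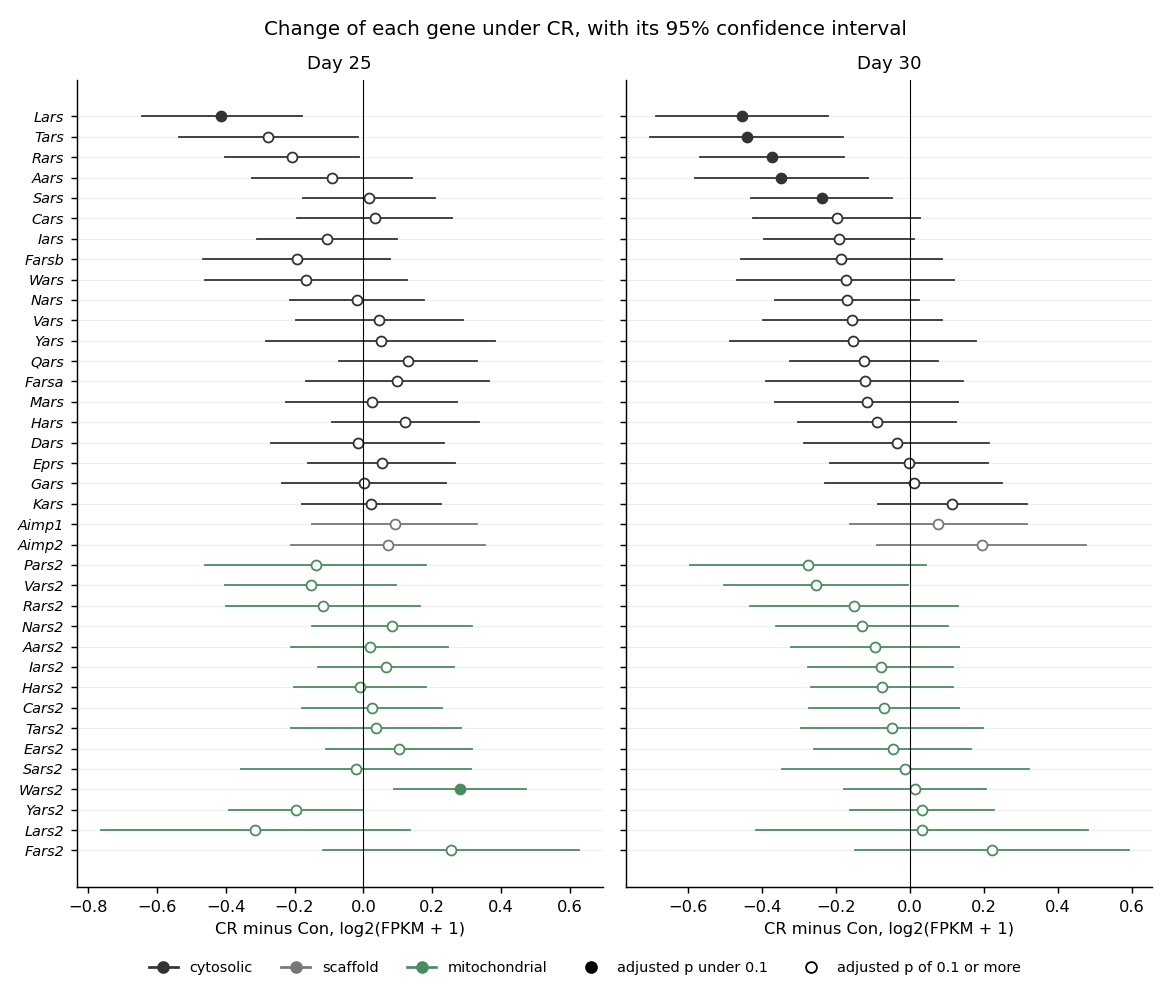
Difference between CR and Con livers for each of the 37 genes tested at day 25 and day 30, in log2(FPKM + 1), with the 95% confidence interval of limma and filled points where the adjusted p was under 0.1. At day 30 the filled points are Lars, Tars, Rars, Aars and Sars, all to the left of 0, and at day 25 they are Lars to the left and Wars2 to the right.

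Among mitochondrial synthetases only Wars2, for tryptophan, passed at day 25, and it was higher in CR. It had 1.13, 1.17 and 0.921 FPKM in Con and 1.53, 1.62 and 1.40 FPKM in CR livers, with no overlap, which 10.2% of all genes showed in this direction. The difference was 0.28 ± 0.09 (adjusted p = 0.0676 with limma), beside 5.6% of all genes that passed as higher. It rested on few reads, and without any CR mouse, or without the Con mouse at 1.13 or 0.921 FPKM, the adjusted p was 0.105 to 0.202. At day 30 the Con livers had 1.27, 1.33 and 1.28 FPKM and the CR livers 1.25, 1.37 and 1.32 FPKM, which overlapped, and the difference was 0.02 ± 0.09 (adjusted p = 0.924 with limma).

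The remaining mitochondrial genes showed smaller or more scattered differences. Vars2, for valine, was at 5.18, 5.52 and 5.13 FPKM in Con and at 4.29, 4.62 and 3.89 FPKM in CR livers at day 30. The groups did not overlap, and the difference of -0.25 ± 0.12 had an adjusted p of 0.15 with limma. It passed in 3 of 21 alternatives, namely with TPM scaling (adjusted p = 0.0569), with the replicate number as a block (0.0633) and without the CR mouse of day 25 at 5.54 FPKM (0.0914). Vars2 shares 465 exon bases with the antisense gene Gm20483, and reads of the pair cannot be told apart without strand. Yars2 at day 25 was at 6.29, 7.597 and 7.44 FPKM in Con and at 5.95, 6.16 and 6.08 FPKM in CR livers, all CR values being lower, with a difference of -0.20 ± 0.09 (adjusted p = 0.197 with limma) that became 0.03 ± 0.09 at day 30.

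Lars2, the most abundant member, also had the largest scatter between mice of a group on the log2(FPKM + 1) scale. Its pooled within-group SD was 0.292, and the lowest was 0.0612 for Wars2, a low gene whose scatter this scale understates. At day 25 the Con livers had 79.2, 90.9 and 58.3 FPKM of Lars2 and the CR livers 54.4, 76.9 and 51.7 FPKM. At day 30 they had 71.8, 69.4 and 48.8 FPKM and 54.7, 63.3 and 75.3 FPKM, respectively. The groups overlapped at both days. The 95% confidence interval of the day 30 difference was wide, from -0.42 to 0.48, so that a change in either direction within it remains possible. Fars2, for phenylalanine, varied nearly as much, with CR minus Con differences of 0.25 ± 0.17 and 0.22 ± 0.17 at day 25 and day 30 (adjusted p = 0.392 and 0.395 with limma).

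Mars2, too low to be tested, was at 0.925, 1.02 and 0.680 FPKM in Con and 0.737, 0.750 and 0.691 FPKM in CR livers at day 25. At day 30 it was at 0.644, 0.700 and 0.863 FPKM in Con and 0.759, 1.07 and 0.699 FPKM in CR livers. These values overlapped at both days. The 14 mitochondrial synthetases not called at day 25 had differences between -0.31 and 0.25, and the 15 at day 30 had differences between -0.28 (Pars2) and 0.22 (Fars2). At day 30, 11 of 15 were below 0, as were 60.8% of all genes, but only 8 with median-ratio scaling and 6 with quantile normalization.

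When the genes for the same amino acid were set side by side, the cytosolic gene had the more negative difference in 11 of 12 pairs at day 30. For leucine the differences were -0.45 for Lars and 0.03 for Lars2, for threonine -0.44 for Tars and -0.05 for Tars2, and for alanine -0.35 for Aars and -0.09 for Aars2. Arginine and serine showed the same order, with -0.37 for Rars and -0.15 for Rars2, and -0.24 for Sars and -0.01 for Sars2. Valine was the exception, with -0.16 for Vars and -0.25 for Vars2. At day 25 the cytosolic gene was the more negative in 7 of 12 pairs. Some pairs were close at day 30, such as histidine with -0.088 for Hars and -0.075 for Hars2. The scale understates changes of low genes, and the mitochondrial gene was mostly the less abundant partner. The difference between partners was not tested.

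**Figure D4:**
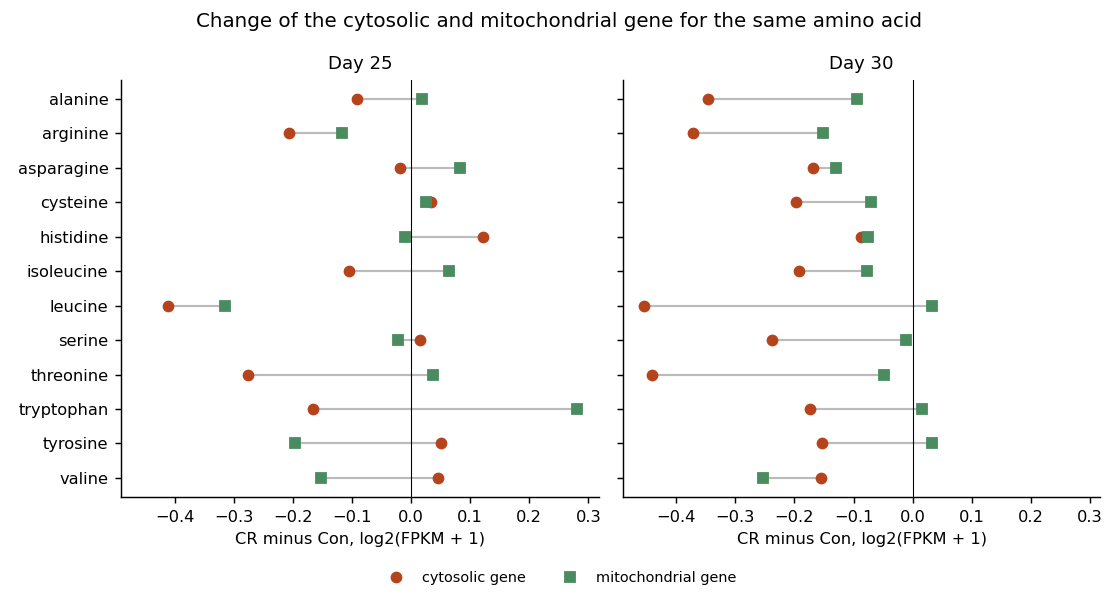
CR minus Con difference in log2(FPKM + 1) of the cytosolic gene (circle) and the mitochondrial gene (square) for the 12 amino acids with both tested. At day 30 the circle lies to the left of the square for every amino acid except valine, and at day 25 for 7 of 12.

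In sum over the 20 cytosolic synthetases, Con livers at day 30 had 356.6 to 382.3 FPKM and CR livers 319.9 to 340.8 FPKM, which did not overlap. Among single genes, 24.3% of all tested had every CR mouse below every Con mouse at that day. The sums are of FPKM not scaled between libraries, are weighted to abundant genes and were not tested. Sums at day 25 were 342.4 to 353.0 FPKM in Con and 326.2 to 348.0 FPKM in CR livers, which did. The sum over the mitochondrial synthetases was 132.2 to 160.3 FPKM in Con and 141.1 to 154.0 FPKM in CR livers at day 30, and without Lars2 it was 83.4 to 88.6 FPKM and 75.0 to 90.8 FPKM.

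The median difference of the cytosolic synthetases was -0.16 at day 30 and 0.008 at day 25, beside -0.07 and -0.04 for all genes tested. That of the mitochondrial synthetases was -0.07 at day 30 and 0.02 at day 25. Median-ratio scaling and quantile normalization, which brought the median of all genes to -0.002 and 0 at day 30, gave -0.09 and -0.08 for the cytosolic synthetases. The distance from the median of all genes was -0.10 without scaling and -0.08 under both of these settings. The mitochondrial median of day 30 changed sign with quantile normalization (0.02), as did the cytosolic median of day 25 with TPM scaling (-0.008). Scaling also changed the balance of calls over all genes at day 30, from 882 higher and 1737 lower to 1319 higher and 1238 lower with median-ratio scaling.

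**Figure D5:**
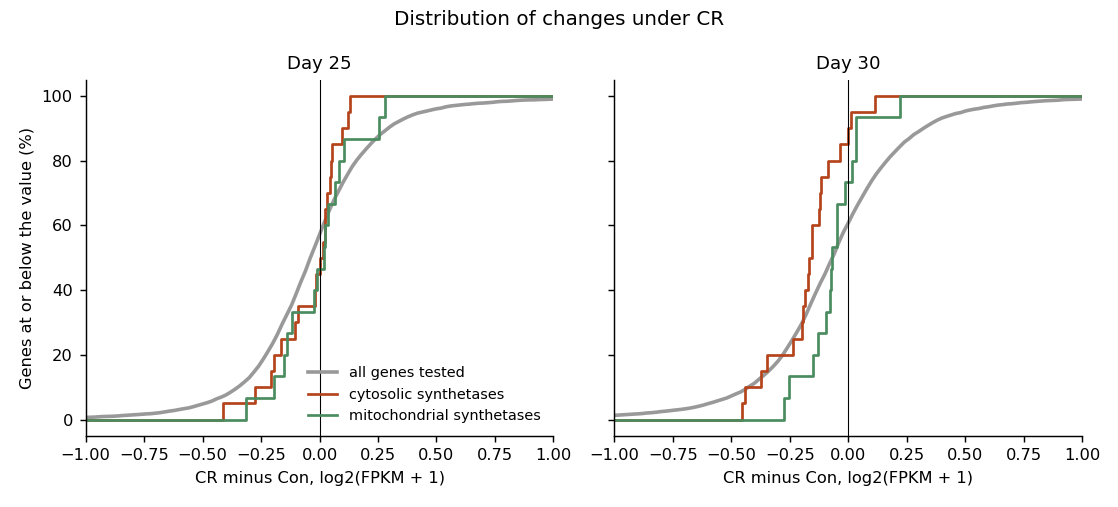
Cumulative share of genes, in percent, at or below each CR minus Con difference in log2(FPKM + 1), for all 10593 genes tested (grey), the 20 cytosolic (red) and the 15 mitochondrial synthetases (green). At day 30 the red curve lies to the left of the grey one around the median (-0.16 against -0.07), but it lacks the long tails of all genes, and at day 25 the medians are 0.008 and -0.04.

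Aimp1 and Aimp2 hold the cytosolic multisynthetase complex together, and neither passed at either day. Aimp1 was at 20.4, 20.8 and 19.4 FPKM in Con and at 21.8, 21.4 and 20.9 FPKM in CR livers at day 30, with all CR mice higher by a small margin and a difference of 0.08 ± 0.11 (adjusted p = 0.668 with limma). Aimp2 was at 8.48, 7.48 and 7.25 FPKM in Con and at 9.15, 10.6 and 7.44 FPKM in CR livers, which overlapped, with a difference of 0.19 ± 0.13 (adjusted p = 0.327 with limma). Aimp2 shares 487 exon bases with Eif2ak1. Of the 8 synthetases that belong to the complex (Dars, Eprs, Iars, Kars, Lars, Mars, Qars and Rars), a grouping made after the values were seen, Lars and Rars were called at day 30 and the median difference was -0.12. Of the other 12 cytosolic synthetases, Aars, Sars and Tars were called and the median was -0.17.

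Whether the effect of CR differed between the days was tested for each gene as the CR minus Con difference at day 30 less that at day 25. None of the 37 genes passed with limma, none had an unadjusted p under 0.05, and voom on recovered reads also called none, although 1 mitochondrial gene had an unadjusted p under 0.05 with voom. Over all genes tested 1 passed, or 0.00944%. A difference between the days was therefore not shown for any single synthetase. The smallest unadjusted p-values were 0.0533 for Wars2 (-0.27 ± 0.12), 0.0641 for Sars (-0.25 ± 0.12), 0.0757 for Qars (-0.25 ± 0.13) and 0.0949 for Yars2 (0.23 ± 0.13), each with an adjusted p of 1.0 with limma. The interval for Lars ran from -0.37 to 0.29. No synthetase passed with limma or voom between day 25 and day 30 within CR, where 0.321% of all genes passed and 1 synthetase gene had an unadjusted p under 0.05. Within Con no synthetase passed by either tool and 2 had such a p, while limma called none of all genes and 765 had an unadjusted p under 0.05. From day 25 to day 30 the median change of the 20 cytosolic synthetases was 0.073 within Con and -0.011 within CR. Changes were above 0 for 15 and 7 of them, respectively. All genes tested had medians of 0.016 and -0.007. Mean Con levels of Tars, Rars, Aars and Sars were higher at day 30. Mean CR levels were near those of day 25 for Tars and Rars and lower for Aars and Sars. These shifts of the set were not tested.

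With both days in a single model and day as a covariate, which set 6 CR against 6 Con mice, 6 synthetases passed and all were lower, beside 40.6% of all genes called and 26.1% called lower. The difference was -0.43 ± 0.07 for Lars (adjusted p = 0.000795 with limma), and those of the next genes were, for Tars, -0.36 ± 0.08 (0.00639), for Rars -0.29 ± 0.06 (0.00455) and for Aars -0.22 ± 0.08 (0.0522). Iars, for isoleucine, at -0.15 ± 0.06 (0.091) and Vars2 at -0.20 ± 0.08 (0.0648) completed the list. Lars, Tars and Rars passed in each of 20 alternatives, Aars in 16, Vars2 in 10 and Iars in 8. Aars was lost without the Con mouse of day 30 at 50.6 or 56.5 FPKM or the CR mouse at 35.6 FPKM, at adjusted p-values of 0.103 to 0.115. Iars was lost without any of 9 of the 12 mice (adjusted p = 0.104 to 0.195) and Vars2 without any of 7 (0.1 to 0.139). Which genes passed depended on scaling. With median-ratio scaling 7 passed, of which 4 were higher (Aimp2, Fars2, Kars and Wars2, all above 0 without scaling too) and 3 lower (Lars, Rars and Tars), and with quantile normalization 3 were higher and 4 lower. With the replicate number as a block 8 passed, Farsb as lower and Fars2 as higher being added.

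Genes around the synthetases were counted by pathway. Of 15 other genes of aminoacylation and tRNA handling, 3 were called lower at day 25, beside 9.34% of all genes. None was called at day 30 with limma or voom, and none had an unadjusted p under 0.05 with limma and 1 with voom. The 3 were Qrsl1 and Mtfmt, which make mitochondrial glutaminyl-tRNA and formylmethionyl-tRNA, and Xpot, the export factor of tRNA. Qrsl1 was 2.57 ± 0.44 FPKM in Con and 1.47 ± 0.35 FPKM in CR livers (SD, n = 3) and fell by 0.53 on the log2 scale (adjusted p = 0.0198 with limma). Mtfmt and Xpot fell by 0.31 and 0.28 (adjusted p = 0.0457 and 0.0716 with limma). Of 21 genes of RNA polymerase III and its factors, which transcribe tRNA genes, 1 was higher at day 25 and 1 was higher and 3 were lower at day 30. These were 4.76% and 19.0% of the 21 genes, below the 14.9% and 24.7% called over all genes. Polr3b was the higher gene at both days (0.25 and 0.21), and Gtf3c3, Gtf3c6 and Polr3k fell by 0.32, 0.39 and 0.34 at day 30.

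A list drawn up around Gcn2 and Atf4 also held the other Eif2ak kinases, Eif2ak2 among them. Of its 34 genes found in the table, 26 were tested, with 6 higher and 2 lower at day 25 and 5 higher and 5 lower at day 30. Those called as higher were 23.1% and 19.2% of the genes tested, beside 5.6% and 8.33% of all genes, and those called as lower 7.69% and 19.2%, beside 9.34% and 16.4%. Atf4 itself was at 56.9 ± 2.62 FPKM in Con and 52.1 ± 5.19 FPKM in CR livers at day 30 (SD, n = 3) and did not pass at either day. Ddit4, an inhibitor of mTORC1, rose from 2.05 ± 0.83 to 13.7 ± 2.83 FPKM at day 30 (2.29 ± 0.39, adjusted p = 0.00256 with limma). Herpud1 rose by 0.93 and 0.79 and Cebpb by 0.78 and 0.71 at day 25 and day 30. Atf5 fell by 1.26 and 1.08, and Eif2ak2 fell by 0.70 at day 30. This list thus held genes in both directions, and 8 members such as Phgdh and Psat1 were too low in liver to be tested.

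Markers of other liver cells also differed between the groups, and in bulk tissue fewer cells of a type and less RNA per cell cannot be told apart. Over all genes, 5.6% were called higher and 9.34% lower at day 25, and 8.33% and 16.4% at day 30. At day 30 the summed hepatocyte markers were at 39900 to 48200 FPKM in Con and 55600 to 66300 FPKM in CR livers, with 3 of 8 called higher and 2 lower (1 higher at day 25). Alb made up the rise, at 25400 to 33000 FPKM in Con and 41000 to 51700 FPKM in CR, while the other 7 markers summed to 14300 to 15100 FPKM and 13700 to 14600 FPKM. Stellate cell markers summed to 82.1 to 104 FPKM in Con and 130 to 144 FPKM in CR, with 4 of 7 called higher (1 at day 25). Endothelial markers summed to 44.2 to 49.4 FPKM and 61.5 to 71.9 FPKM, with 4 of 8 called higher (2 at day 25). Kupffer cell markers, summing to 52.5 to 91.5 FPKM in Con and 34.4 to 43.4 FPKM in CR at day 25, had 5 of 9 called lower there and 1 called higher at day 30, when their sums overlapped. Neither of 2 cholangiocyte markers and neither of 2 pancreatic markers tested was called with limma or voom or had an unadjusted p under 0.05. Of 5 erythroid markers, 1 was called lower at each day (Alas2). The other 4 were above 0 at day 30 (0.75 to 0.79) and were not called. No lymphoid marker of 8 was high enough for testing. No marker was at 0 in all livers. The part of these markers in the synthetase differences was not tested.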

How the data were processed

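Livers of 12 mice were sequenced with paired-end reads on a single lane. According to the study's methods and the submitters' processing notes, CASAVA 1.8.2, FastQC, BWA (build mm10) and DESeq2 were used. The authors deposited FPKM values per gene, which the table header credits to HOMER. Reads on exons were counted, a single transcript stood for each gene, and libraries were not scaled to each other. Farsb and Yars2 were listed under non-coding transcripts of these genes. FPKM are not counts, so log2(FPKM + 1) was analyzed with limma 3.58.1 in R 4.3.3 (empirical Bayes with trend, 1 model of 4 groups, 2-sided) for 10593 genes with at least 1 FPKM in at least 3 libraries. Calls needed a Benjamini-Hochberg adjusted p under 0.1 over all genes tested. The script was tested on simulated data.

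Low FPKM values move in steps that give the depth, and 100.0% of 1500 such values per library came out as whole reads within 0.1 of a read. Genes with few reads are the least precise. Groups came from the sample labels, which do not tell the 3 Con mice of day 30 apart, so those columns were used as a group. Same-numbered Con and CR mice of day 25 deviated together over all genes (r = 0.106 to 0.368, mean 0.26). Deviations from a group mean cancel out within the group, so the mean of -0.132 for different numbers largely follows from this. It is not separate evidence of pairing. A model with the number as a block was an alternative. Other alternatives were a pseudocount of 0.1, no filter, median-ratio, TPM and quantile scaling, moderation without trend, voom on recovered reads, only the groups compared, an adjusted p under 0.05 and leaving out each mouse.

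The genes and lists were chosen with earlier results of these data known. All 38 synthetase and scaffold genes could be named, and from each other list at most 5 called genes with the smallest adjusted p. Atf4, Phgdh and Psat1 are named outside this rule, after their values were seen. Some promoter sequence is not reported here. Exon overlaps come from GENCODE M21. Of the 38 genes, 10 share exon bases with another gene, and 6 of these with a protein-coding one. Figures were drawn with matplotlib 3.10.9 under Python 3.11.15, with tables made in pandas 2.3.3 and numpy 2.4.6.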

Additional observations from a re-analysis of the deposited data

How the results depend on the processing

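Results for Lars, Tars and Rars at day 30 kept their direction and their side of the threshold in all 21 alternatives. With only the groups compared in the model, 1 synthetase passed at day 25 (Lars) and 3 at day 30 (Lars, Rars and Tars). An adjusted p under 0.05 left 1 at day 25 and 3 over both days. When each mouse was left out in turn, 0 to 3 genes passed at day 25, 3 to 6 at day 30, 3 to 9 over both days and none for the difference between days. The cytosolic median of day 30 was -0.0853 with median-ratio scaling and -0.0809 with quantile normalization, and -0.209 to -0.115 with a mouse left out. Lars2 at day 30 changed sign with TPM scaling (-0.000329) and without 1 Con mouse (-0.141) or 1 CR mouse (-0.0838), with a range of -0.141 to 0.143 over all alternatives. Of the values for single genes under alternatives, 401 kept direction and side of the threshold, 48 no longer passed, 4 newly passed and 3 reversed. The cause was not tested.

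The block by replicate number left the same 2 calls at day 25, although 2154 rather than 1582 genes passed over all. The numbers of day 30 come from the column names, and same-numbered mice correlated by only 0.046 to 0.181, so they were not taken as pairs. With that block, 6 genes passed at day 30 (Vars2 was added), 8 over both days (1 higher, Fars2, and 7 lower) and none for the difference between days. Voom on recovered reads called 1587 genes at day 25 and 2826 at day 30. Reads per gene limit what can be said of Pars2, Mars2 and Wars2, and 3 mice per group limit Lars2 and Fars2.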
